A study of Homo sapiens with 12 samples.

Results

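Metallothioneins are small intracellular proteins whose many cysteines bind zinc, copper and cadmium. Their genes are switched on by metals through MTF1, a zinc finger transcription factor that binds metal response elements in their promoters, and also by glucocorticoids and oxidative stress. In humans the functional MT1, MT2, MT3 and MT4 genes lie side by side at 16q13, and squamous epithelium is among the tissues that express the MT1 and MT2 genes. The 10 genes described here are the metallothioneins MT1A, MT1E, MT1F, MT1G, MT1H, MT1M, MT1X, MT2A and MT3 and the regulator MTF1, of 61044 rows in the gene table. They were chosen by name, and the family was taken up because MT1E was already known to be near 0 in every library with an shRNA. The values of MT1E with each shRNA against the control are therefore a description with no test. The other 9 members entered through their family name.

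The data are RNA sequencing of cells labelled SCC-15, an established human line of oral squamous cell carcinoma. The control group (NC) carried a negative-control short hairpin RNA, and the shRNA1, shRNA2 and shRNA3 groups each carried a different hairpin labelled as directed against FMOD, which encodes the matrix proteoglycan fibromodulin. All cells were grown in the same medium with serum and harvested after 48 hours, and the 12 libraries are 3 for each of the 4 groups. The labels do not say whether the libraries of a group came from separate cultures, so p-values measure the spread between these libraries, which may be technical. Levels are counts-per-million (CPM) values scaled by the trimmed mean of M values (TMM), and a difference was called where the adjusted p-value of edgeR's quasi-likelihood test (Benjamini-Hochberg, over the 17532 genes tested) was under 0.05. The 3 comparisons of a hairpin with NC share the NC libraries.

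Several properties of the whole series bear on every value below. Library totals lay between 17287017 and 19567289 counts. FMOD itself was at the limit of detection, with 2, 2 and 3 counts in the NC libraries and 0 in all 9 shRNA libraries, so it gives only a weak check of the labels. The NC libraries stood apart from all the others: correlations of log2 levels across genes were 0.829 to 0.855 between NC and shRNA libraries, and 0.969 to 0.980 between shRNA1 and shRNA2. Whether the NC and shRNA cultures differed in more than the hairpin was not tested, so every difference from NC below is one between libraries with these labels and cannot be assigned to the hairpins. Within groups they were 0.983 to 0.996, except that shRNA3 library 3 had 0.916 to 0.919 with shRNA3 libraries 1 and 2. Those 2 libraries also had the lowest TMM factors, 0.771 and 0.795. All 12 squamous markers were above 3 counts in every group, with a summed level of 2989 to 8172 CPM; by edgeR, 3 were lower and 3 higher with all 3 hairpins. KRT5, the basal keratin, had 1008 CPM in NC, 21.4 CPM with shRNA1, 80.1 CPM with shRNA2 and 74.8 CPM with shRNA3. The 3 that rose were the keratins KRT14, from 7.58 to 55.4, 24.5 and 149 CPM, KRT6A, from 92.2 to 284, 428 and 211 CPM, and KRT17, from 312 to 647, 571 and 748 CPM. The 4 endothelial markers summed to 17.6 to 23.1 CPM in NC, mostly CDH5 (17.3 CPM), and to 3.88 to 13.2 CPM in the shRNA libraries, where CDH5 had 1.94, 2.53 and 1.35 CPM and PECAM1 rose from 0.133 to 2.60, 4.75 and 8.73 CPM; KDR was at or under 3 counts throughout. The 7 fibroblast markers summed to 56.8 to 59.7 CPM in NC and 15.5 to 86.5 CPM with shRNAs, with COL3A1 at or under 3 counts in all groups. This sum was mostly COL1A1 (41.7 CPM in NC), which edgeR called lower with shRNA1 only. Of the 4 tested, the other 3, COL1A2, LUM and PDGFRB, were lower with all 3 hairpins, and 0 were higher. PDGFRB had log2 differences of -3.79, -3.28 and -3.87. COL1A2 had 4.80 CPM in NC and at most 0.0688 CPM as a group mean with shRNAs, and LUM was likewise near the floor there. The 5 leukocyte markers summed to 53.9 to 72.2 CPM in NC and 44.0 to 236 CPM with shRNAs, nearly all of it from CD68, and the 4 melanocyte markers to 1.59 to 9.32 CPM over all libraries. The part of these differences in the metallothionein values was not tested.

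The proteins of the family are nearly alike, and so are their genes. In GENCODE release 29, 8 of the 9 metallothionein members have a coding sequence of 186 bases with the stop codon, of whose 61 codons 20 encode cysteine, and MT3 has 207 bases. The coding sequences of the metallothionein members with more than 4 counts in some library, and of MT1B, are shown to let the copies be compared; capitals mark bases that differ from MT1E.
MT1E: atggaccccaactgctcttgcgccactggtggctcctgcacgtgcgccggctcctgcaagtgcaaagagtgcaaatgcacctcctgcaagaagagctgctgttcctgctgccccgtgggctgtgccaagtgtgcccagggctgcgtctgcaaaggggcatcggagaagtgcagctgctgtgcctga
MT1M: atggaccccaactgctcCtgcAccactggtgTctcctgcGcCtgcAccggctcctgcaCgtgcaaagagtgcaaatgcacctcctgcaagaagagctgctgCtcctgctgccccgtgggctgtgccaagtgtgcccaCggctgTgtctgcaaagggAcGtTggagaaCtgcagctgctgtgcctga
MT1G: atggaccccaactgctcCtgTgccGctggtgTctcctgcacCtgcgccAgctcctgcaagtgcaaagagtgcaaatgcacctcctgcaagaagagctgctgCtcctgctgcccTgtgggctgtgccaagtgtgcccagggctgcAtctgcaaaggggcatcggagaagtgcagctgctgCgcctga
MT1X: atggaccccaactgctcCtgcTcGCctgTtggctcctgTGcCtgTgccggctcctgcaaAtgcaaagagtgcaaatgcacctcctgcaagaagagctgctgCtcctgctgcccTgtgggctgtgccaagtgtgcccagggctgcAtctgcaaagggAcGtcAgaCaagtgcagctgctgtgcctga
MT1F: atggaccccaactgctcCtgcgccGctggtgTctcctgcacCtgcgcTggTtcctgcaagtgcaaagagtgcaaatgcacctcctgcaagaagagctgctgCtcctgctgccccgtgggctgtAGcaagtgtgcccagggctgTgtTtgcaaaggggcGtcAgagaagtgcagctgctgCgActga
MT2A: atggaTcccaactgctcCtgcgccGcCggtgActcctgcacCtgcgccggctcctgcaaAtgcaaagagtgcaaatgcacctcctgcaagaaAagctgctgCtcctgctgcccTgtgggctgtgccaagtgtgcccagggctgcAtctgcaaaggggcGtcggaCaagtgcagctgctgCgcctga
MT1B: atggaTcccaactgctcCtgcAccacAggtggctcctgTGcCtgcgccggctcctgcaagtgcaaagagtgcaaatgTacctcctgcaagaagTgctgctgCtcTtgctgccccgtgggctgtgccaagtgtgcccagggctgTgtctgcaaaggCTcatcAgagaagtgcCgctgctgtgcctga
The sequence of MT1G differs from that of MT1E at 10 positions. The sequences of MT1M and MT2A each differ from MT1E at 14 positions, that of MT1F at 15, that of MT1B at 16 and that of MT1X at 17. Over whole transcripts the longest exact stretch that MT1E shares with another of these genes is 52 bases, with MT1G, and 32 bases with MT2A. How the authors' counting treated reads that fit more than 1 copy is not given in the sources used here, so counts can have moved between copies.

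MT1E, which lies at chromosome 16, 56625475 to 56627112 on the plus strand of GRCh38, encodes an MT1 isoform and was the member that led to the choice of the family. It had 454, 848 and 985 CPM in the NC libraries, from 8998, 17241 and 19429 counts. Of the 9 shRNA libraries 7 had no MT1E count, shRNA2 library 2 had 1 and shRNA3 library 3 had 2. The groups therefore did not overlap. Taking 3 counts as the smallest level that can be told from 0, which corresponds to 0.145 to 0.222 CPM in these libraries, the NC mean of 762 CPM was at least 4927-fold higher than the shRNA1 level, at least 4344-fold higher than the shRNA2 level and at least 3430-fold higher than the shRNA3 level. These limits cover counting error only.

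**Figure D1:**
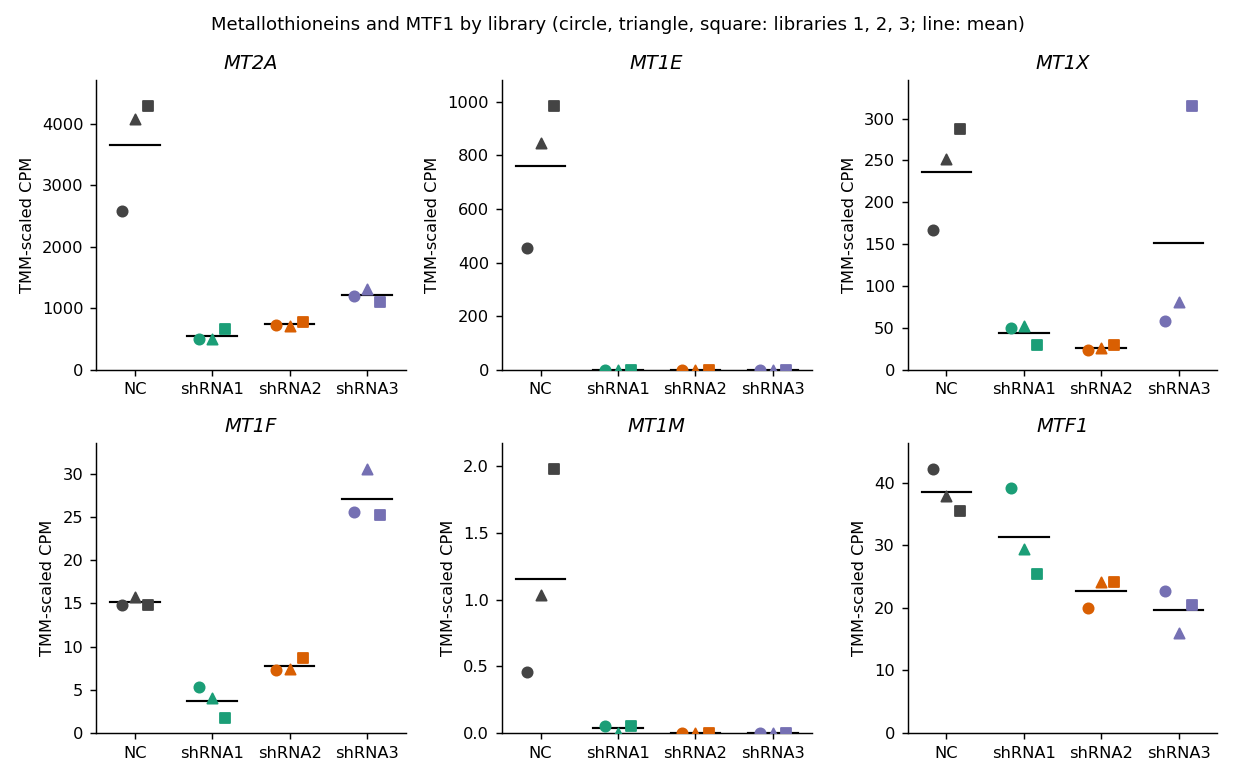
TMM-scaled CPM of MT2A, MT1E, MT1X, MT1F, MT1M and MTF1 in each of the 12 libraries, by group, on linear axes that start at 0; circles, triangles and squares are libraries 1, 2 and 3 and lines are group means. MT1E and MT1M sit at 0 in the shRNA groups, MT2A keeps 550 to 1208 CPM as a group mean, MT1F is highest with shRNA3, and shRNA3 library 3 has more MT1X than any NC library.

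The loci that follow MT1E, MT1M and MT1JP, were also read in NC and nearly absent with shRNAs, though at far lower levels. MT1M, the next gene after MT1E (chromosome 16, 56632233 to 56633986, plus strand), had 9, 21 and 39 counts in the NC libraries, or 0.454, 1.03 and 1.98 CPM. It had at most 1 count in each shRNA1 library and 0 in every shRNA2 and shRNA3 library. MT1M was at least 7.46-fold lower with shRNA1, 6.58-fold with shRNA2 and 5.19-fold with shRNA3, but its counts were too low to pass the filter, so it has no test. These limits rest on NC library 3, without which they are 4.81-, 4.24- and 3.35-fold. The next locus is MT1JP, a transcribed pseudogene that is no member of the list (56635739 to 56637086). It had 19, 50 and 50 counts in NC and 0 in all 9 shRNA libraries, which makes it at least 12.8-fold (shRNA1), 11.3-fold (shRNA2) and 8.93-fold (shRNA3) lower. MT1JP passed the filter through its NC counts alone, so a call against NC could only be lower and adds no support. edgeR made that call for all 3 hairpins (adjusted p = 0.00157, 0.00189 and 0.00213), and DESeq2's Wald test did not (adjusted p = 0.101, 0.115 and 0.125). On the other side of MT1E, the pseudogene MT1L had 1, 1 and 0 counts in NC and 0 elsewhere, which gives no level to compare. MT1E, MT1M and MT1JP lie within 11.6 kb, and no shRNA library had more than 2 counts at any of the 3. Over whole transcripts MT1M shares an exact stretch of 45 bases with MT1E. Whether MT1E reads were counted at MT1M or MT1JP was not tested, so a loss along these loci cannot be told from that.

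Other loci of the cluster were read with every hairpin. MT2A, before these 3 loci, and MT1F and MT1X, after them, kept from 34 to 22173 counts in every shRNA library. MT1A, the locus after MT1JP, had at most 2 counts in any library of any group, so nothing can be said of its level, and the same holds for MT1H, MT4, MT1DP, MT1CP and MT1IP. Of the 16 metallothionein loci at 16q13, counting pseudogenes, 9 had more than 3 counts in some library and 3 had none at all.

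**Figure D2:**
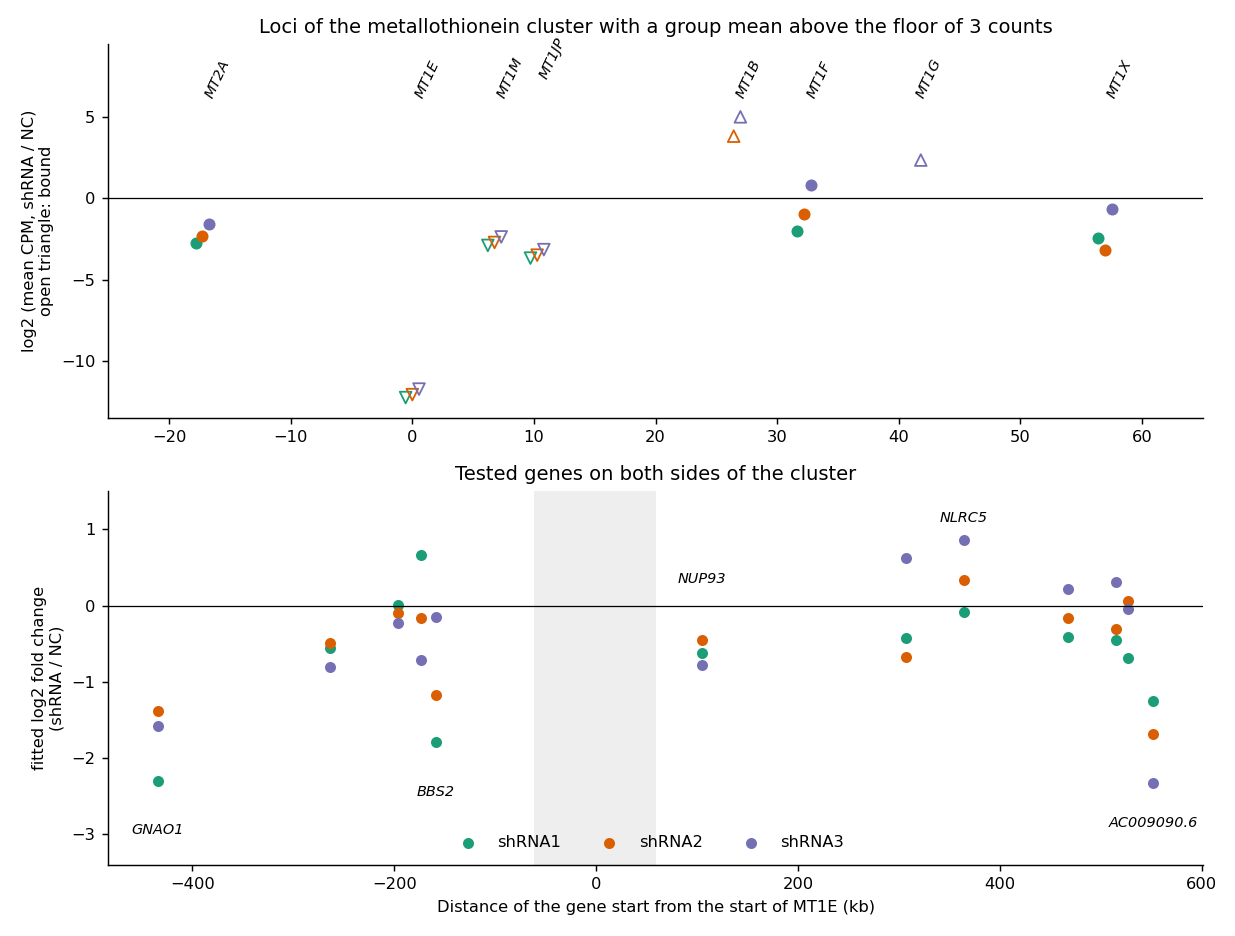
Top, log2 ratio of mean CPM (shRNA over NC) for loci of the cluster against the distance of their start from that of MT1E in kb, with open triangles for lower bounds on the size of a difference against a group at or under 3 counts; bottom, fitted log2 fold changes of the tested genes in the flanking 500 kb, with the cluster in grey and SLC12A3, at 0 in NC, left out. MT1E, MT1M and MT1JP are next to each other and all point down for the 3 hairpins, MT1B and MT1G point up, and the flanking genes lie on both sides of 0. Whether MT1E reads were counted at MT1M or MT1JP, or MT1X reads at MT1G, was not tested.

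MT2A encodes the main metallothionein of most tissues and was the most abundant member in every library. Per kilobase of transcript it had 4644 ± 1189 CPM (SD, n = 3) in NC, against 1083 ± 392 for MT1E, 524 ± 138 for MT1X, 21.9 ± 0.799 for MT1F, 4.83 ± 0.422 for MTF1 and 1.39 ± 0.927 for MT1M. The ranges of MT1E (645 to 1399) and MT1X (371 to 640) nearly touched in NC, while the means of MT2A, MT1X, MT1F and MTF1 kept their order in every group, with overlapping ranges of MT1F and MTF1 only with shRNA1. Transcript models differ in length between annotations, which moves these values more than the order.

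MT2A lies at chromosome 16, 56608199 to 56609497, on the plus strand. Its levels were 2577, 4085 and 4289 CPM in NC, 496, 502 and 653 CPM with shRNA1, 724, 717 and 782 CPM with shRNA2, and 1204, 1320 and 1100 CPM with shRNA3. Every shRNA library was below every NC library, and the 3 hairpins kept an order without overlap. MT2A fell by 2.73 on the log2 scale with shRNA1 (SE 0.21, adjusted p = 1.89e-06), by 2.30 with shRNA2 (SE 0.21, adjusted p = 5.50e-06) and by 1.60 with shRNA3 (SE 0.21, adjusted p = 6.80e-05) in the edgeR fit. In linear terms it was 6.63-, 4.93- and 3.02-fold lower. Among all tested genes 25.8% had every shRNA library below every NC library and 19% had every shRNA library above, so such a separation was common in these data. The share of genes in which the 3 hairpins also keep apart was not counted.

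MT1X, an MT1 isoform gene at the far end of the cluster (56682424 to 56684196, plus strand, overlapping AC026461.1 on the same strand), had 167, 252 and 288 CPM in NC. It had 49.3, 52.0 and 29.6 CPM with shRNA1 and 23.3, 25.7 and 29.7 CPM with shRNA2. With shRNA3 it had 57.8 and 81.0 CPM in libraries 1 and 2 but 315 CPM in library 3, above every NC library. MT1X fell by 2.43 on the log2 scale with shRNA1 (SE 0.54, adjusted p = 0.00248) and fell by 3.17 with shRNA2 (SE 0.56, adjusted p = 0.000580, edgeR). The shRNA3 difference of -0.64 (SE 0.51, edgeR adjusted p = 0.314) did not pass, and it rested on which libraries were used. Without shRNA3 library 3 it was -1.77 (adjusted p = 0.000182), and without shRNA3 libraries 1 and 2 it was 0.45 (adjusted p = 0.245).

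MT1F, another MT1 isoform gene (56657694 to 56660698, plus strand), was the member whose direction depended on the hairpin. It had 14.8, 15.7 and 14.8 CPM in NC, 5.27, 4.07 and 1.75 CPM with shRNA1, 7.25, 7.43 and 8.69 CPM with shRNA2, and 25.6, 30.5 and 25.3 CPM with shRNA3. No 2 groups overlapped: shRNA1 and shRNA2 lay below NC and shRNA3 above it. How many of all tested genes keep the 4 groups apart was not counted. MT1F fell by 2.03 on the log2 scale with shRNA1 (SE 0.32, adjusted p = 0.000244) and by 0.95 with shRNA2 (SE 0.31, adjusted p = 0.0208), and it rose by 0.84 with shRNA3 (SE 0.30, adjusted p = 0.0339, edgeR). The rise was 0.50 with an adjusted p of 0.210 when libraries were scaled by their totals in place of TMM. It also lost its call without any 1 of the NC libraries (adjusted p = 0.0757 to 0.0900), without shRNA3 library 2 (0.0690) and without shRNA3 libraries 1 and 2 together (0.0684). The shRNA2 fall lost its call without NC library 2 and without shRNA2 library 1 or 2, with adjusted p-values of up to 0.0717.

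The remaining metallothionein members were at or near 0. MT1H, an MT1 isoform gene, had 1 count in shRNA3 library 3 and none elsewhere. MT3, the isoform known from the brain, had 0, 2 and 4 counts in NC and 0 in all shRNA libraries. MT1G, an MT1 isoform gene on the minus strand between MT1F and MT1H (56666731 to 56668065), had at most 1 count in 11 libraries and 47 counts, or 2.33 CPM, in shRNA3 library 3. None of MT1A, MT1G, MT1H, MT1M and MT3 passed the filter on low counts.

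MT1B, a protein-coding metallothionein of the cluster outside the list (56651899 to 56653204, plus strand, overlapping AC026461.2 on the same strand), was read only in shRNA libraries. It had 0 counts in all NC libraries, 4, 3 and 1 with shRNA1, 22, 41 and 52 with shRNA2, and 0, 5 and 290 with shRNA3. The mean was at least 14.2-fold higher than in NC with shRNA2 and at least 32.3-fold higher with shRNA3, the latter from library 3. MT1B passed the filter through shRNA libraries alone, so a call against NC could only be higher and adds no support. edgeR called it higher for shRNA2 (adjusted p = 0.0240, and 0.0568 to 0.0586 without any 1 of the NC libraries). It was also called for shRNA3 (edgeR adjusted p = 0.0105) and not for shRNA1 (adjusted p = 0.318). With no filter on low counts both calls were lost (adjusted p = 0.0978 and 0.0545). Without shRNA3 library 3 the mean level with shRNA3 was 0.182 CPM, close to the 0.152 CPM floor of NC, and edgeR still called it (adjusted p = 0.0235). MT1X, MT1B and MT1G were thus all highest in shRNA3 library 3. Over whole transcripts MT1G and MT1X share an exact stretch of 96 bases. Whether MT1X reads were counted at MT1G was not tested, so the MT1G counts of that library cannot be told from that.

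Of the 10 members, 5 passed the filter: MT1E, which has no test against NC, and MT1F, MT1X, MT2A and MTF1. Of these 4 tested members, 3 fell and none rose with shRNA1, where edgeR called 57.4% of all tested genes in either direction. All 4 fell with shRNA2, where 53% of genes were called, and 2 fell and 1 rose with shRNA3, where 53.9% were called. The median log2 difference of the 4 was -2.23, -1.63 and -0.80, beside medians of -0.02, -0.05 and -0.03 over all tested genes. With so many genes called in each comparison, the number of members called says little about the family.

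The sum of the 9 metallothionein genes was 3214, 5202 and 5579 CPM in NC, 551, 558 and 684 CPM with shRNA1, 754, 750 and 820 CPM with shRNA2, and 1287, 1431 and 1443 CPM with shRNA3. The 4 groups did not overlap, and how common this is among single genes was not counted. The difference of mean log2 sums from NC was -2.93, -2.55 and -1.71 for shRNA1, shRNA2 and shRNA3, or 7.63-, 5.86- and 3.27-fold lower; a sum over chosen genes was given no test. As a share of all counts the family took 0.352% to 0.616% in NC and 0.0570% to 0.153% in the shRNA libraries. In NC, MT1E held 14.1% to 17.6% of the sum, MT2A 78.5% and MT1X 5.07% on average. Most of the difference lay outside MT1E, since without it the sum was still 6.40-, 4.92- and 2.75-fold lower. Without both MT1E and MT2A the sum of the 7 other genes was 5.38-fold lower with shRNA1 and 7.27-fold with shRNA2, with no overlap with NC. With shRNA3 it was 83.3, 111 and 343 CPM against 182 to 305 CPM in NC, so library 3 lay above every NC library. By mean log2 sums, as for the other folds of sums, shRNA3 was 1.68-fold lower with library 3 and 2.56-fold without it. The plain means were 179 CPM with shRNA3 and 252 CPM in NC. With shRNAs MT2A held on average 91.8%, 95.6% and 87.3% of the sum, and in shRNA3 library 3 MT1X held 21.8%.

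**Figure D3:**
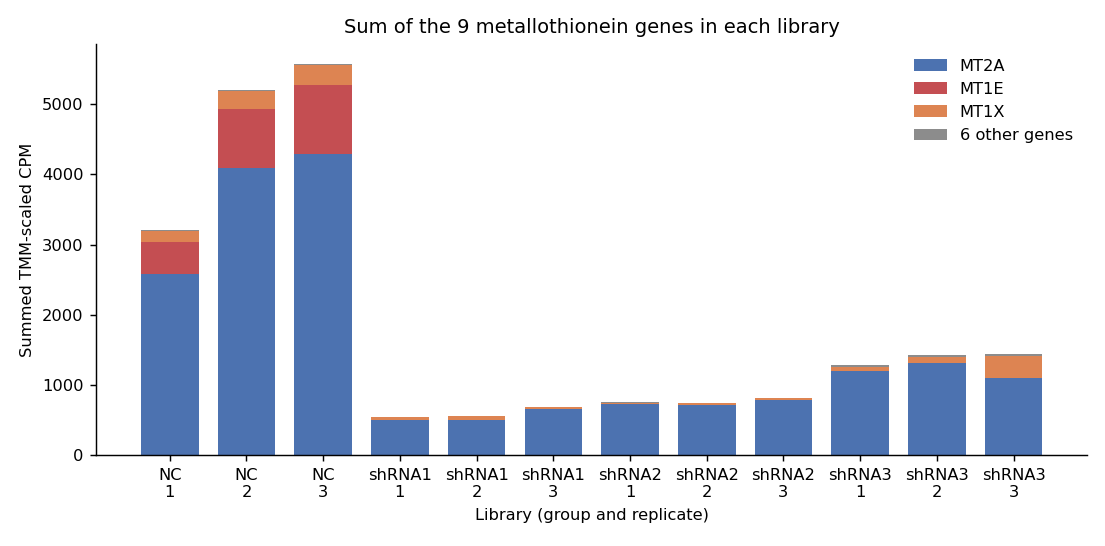
Summed TMM-scaled CPM of the 9 metallothionein genes in each library as stacked bars from 0, for MT2A, MT1E, MT1X and the 6 other genes. The NC bars reach 3214 to 5579 CPM with a visible MT1E part, and the shRNA bars, of 551 to 1443 CPM, are nearly all MT2A apart from MT1X in shRNA3 library 3.

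Members did not move by 1 common factor. For 100 counts of MT2A there were 6.17 to 6.71 counts of MT1X in NC, 4.53 to 10.4 with shRNA1, 3.22 to 3.80 with shRNA2, and 4.80, 6.14 and 28.6 with shRNA3. For MT1F the same ratio was 0.345 to 0.573 in NC, 0.269 to 1.06 with shRNA1, 1.002 to 1.11 with shRNA2 and 2.12 to 2.31 with shRNA3. Relative to MT2A, MT1F was thus above the NC range in every shRNA2 and shRNA3 library, while MT1X was below it in every shRNA2 library.

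MTF1, the regulator, lies on chromosome 1 (37809567 to 37859620, minus strand, overlapping AL929472.4 on the opposite strand). Its levels were 42.2, 37.9 and 35.5 CPM in NC, 39.2, 29.5 and 25.4 CPM with shRNA1, 19.9, 24.2 and 24.1 CPM with shRNA2, and 22.7, 15.9 and 20.5 CPM with shRNA3. The shRNA1 libraries overlapped NC and the others lay below it. MTF1 fell by 0.76 on the log2 scale with shRNA2 (SE 0.20, adjusted p = 0.00674) and by 0.96 with shRNA3 (SE 0.20, adjusted p = 0.00166), and its difference with shRNA1 was -0.30 (SE 0.20, adjusted p = 0.212, edgeR).

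The comparisons between hairpins use no NC value and were not used to choose the family. MT1F was called in all 3 pairs. It was lower with shRNA1 than with shRNA2 by -1.07 log2 (SE 0.31, adjusted p = 0.0463), lower with shRNA1 than with shRNA3 by -2.87 (SE 0.33, adjusted p = 0.00152) and lower with shRNA2 than with shRNA3 by -1.80 (SE 0.31, adjusted p = 0.0248). Of 22 alternatives, 1 lost the MT1F call between shRNA1 and shRNA3 (only the libraries compared, edgeR adjusted p = 0.117), a fit in which 0 of 15326 genes were called. The call between shRNA1 and shRNA2 was lost in 13 (up to 0.149) and that between shRNA2 and shRNA3 in 9 (up to 0.206). Among these were 9 and 8 of the 12 fits without 1 library. MT2A was lower with shRNA1 than with shRNA3 by -1.13 (SE 0.20, edgeR adjusted p = 0.00548; 0.117 with only the libraries compared), whereas its differences of -0.43 between shRNA1 and shRNA2 (adjusted p = 0.191) and -0.71 between shRNA2 and shRNA3 (adjusted p = 0.0526) did not pass.

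MT1X was lower than in shRNA3 by -1.79 with shRNA1 (SE 0.53, edgeR adjusted p = 0.0280) and by -2.53 with shRNA2 (SE 0.54, adjusted p = 0.0311). Without shRNA3 library 3 these differences were -0.66 (adjusted p = 0.0528) and -1.39 (adjusted p = 0.00110). The call against shRNA1 was lost in 8 of 22 alternatives, which include leaving out any 1 shRNA1 library, and that against shRNA2 in 14, which include leaving out any 1 NC or shRNA2 library (adjusted p of up to 0.145 and 0.206). MTF1 was higher with shRNA1 than with shRNA3 by 0.67 (SE 0.20, edgeR adjusted p = 0.0288), a call lost in 9 of 22 alternatives, with 0.48 (adjusted p = 0.109) without shRNA1 library 1 and 0.50 (adjusted p = 0.132) without shRNA3 library 2. Its differences of 0.46 between shRNA1 and shRNA2 (adjusted p = 0.150) and 0.20 between shRNA2 and shRNA3 (adjusted p = 0.475) did not pass. In all, 1 of the 4 tested members was called between shRNA1 and shRNA2, where 12.3% of all genes were called, 4 between shRNA1 and shRNA3 (30.0% of genes) and 2 between shRNA2 and shRNA3 (8.34% of genes). The counts that involve shRNA2 depended most on single libraries. Of the 12 edgeR fits that leave out 1 library, 9 gave 0 called members between shRNA1 and shRNA2 (1 to 3 at an unadjusted p under 0.05, and 1 called by DESeq2's Wald test). Between shRNA2 and shRNA3, 8 gave 0 (3 at an unadjusted p under 0.05, and 3 called by DESeq2's Wald test). Over all genes, those 9 fits called 559 to 2158 of 18039 to 18308 tested, against 2158 of 17532 with all libraries. Those 8 fits called 0 to 44 of 18039 to 18308, against 1462 of 17532 with all libraries. The loss between shRNA2 and shRNA3 was thus one of nearly all genes and not of the members alone.

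**Figure D4:**
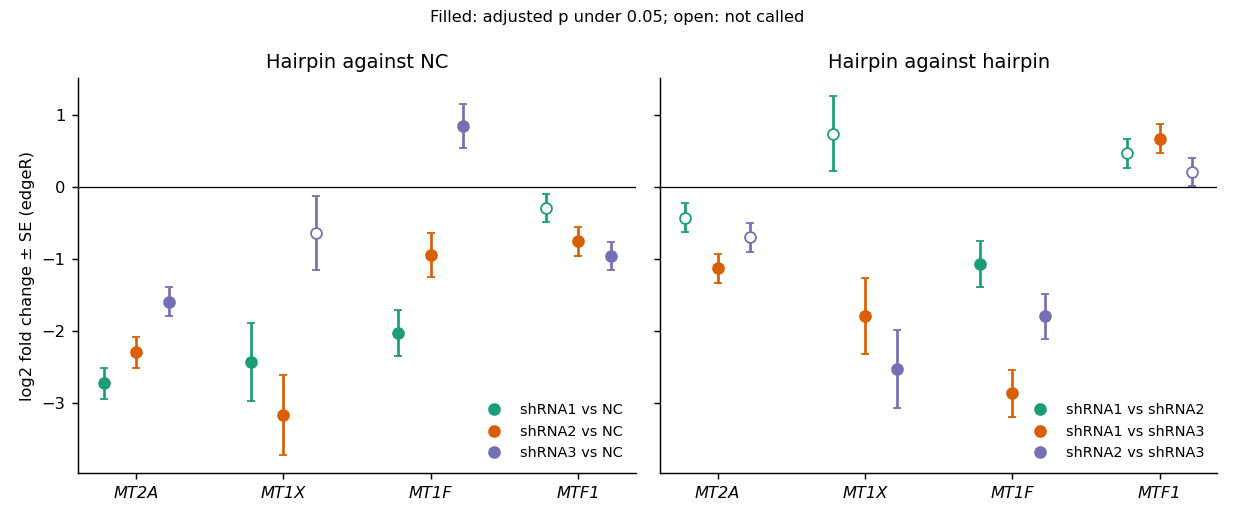
Fitted log2 fold changes (edgeR, ± SE) of MT2A, MT1X, MT1F and MTF1 for each hairpin against NC (left) and between hairpins (right); filled points passed an adjusted p of 0.05. MT2A lies below 0 with all 3 hairpins, MT1F changes sign with shRNA3, and MT1F is the gene with 3 filled points on the right.

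Promoter sequence was taken from RefSeq (GRCh38.p14), which gave the 250 bases before the start of 4 members, MT2A, MT1H, MT1X and MTF1, and of MT1B and MT4. The core of the metal response element, TGCACNC or TGCGCNC on either strand, had 7 matches before MT2A, 8 before MT1H, 4 before MT1X, 3 each before MT1B and MT4, and 0 before MTF1. Among 35116 promoter windows of the same length, 24.8% had at least 1 match, 1.58% at least 3 and 0.370% at least 4. The windows of MT1X, which was lower with shRNA1 and shRNA2, and of MT1B, which was read only in shRNA libraries, are shown up to the first annotated transcript base (chr16:56682220-56682423 and chr16:56651636-56651885, plus strand, bases of GRCh38.p14), with the matches in capitals.
MT1X: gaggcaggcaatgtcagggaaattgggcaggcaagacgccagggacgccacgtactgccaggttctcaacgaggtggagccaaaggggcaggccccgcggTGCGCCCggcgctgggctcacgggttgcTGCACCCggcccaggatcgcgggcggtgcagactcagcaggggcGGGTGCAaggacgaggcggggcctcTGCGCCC
MT1B: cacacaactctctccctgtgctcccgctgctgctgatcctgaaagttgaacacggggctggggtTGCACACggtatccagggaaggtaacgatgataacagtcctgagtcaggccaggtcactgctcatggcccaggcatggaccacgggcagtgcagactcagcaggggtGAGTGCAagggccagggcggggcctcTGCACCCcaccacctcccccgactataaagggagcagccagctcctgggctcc
A match lies 53 bases before the RefSeq start in MT1X, MT1B and MT1H, and another 78 or 79 bases before it. Among these genes MT1X was lower and MT1B higher than in NC with shRNA2, and MT1H had at most 1 count. MT2A and MT1X windows held 73.2% and 70.0% of G and C with 32 and 22 CpG dinucleotides, against 62.4% and 7 for MT1B and medians of 58.0% and 11 over all windows. A match is a string of letters and not a bound site.

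Genes that flank the cluster were called in both directions. Of 38 other genes annotated within 500 kb, 37 were in the table and 13 were tested; 3 fell with all 3 hairpins and 1 rose, beside 19.7% and 16% of all tested genes. By hairpin, 7 were lower and 1 higher with shRNA1, 4 and 1 with shRNA2, and 4 and 2 with shRNA3. Over all tested genes, edgeR called 57.4%, 53% and 53.9% in either direction. The median log2 difference of the 13 was -0.45, -0.31 and -0.15, beside -0.02, -0.05 and -0.03 over all tested genes. The rise with shRNA1 and shRNA2 was that of SLC12A3. The nearest tested gene before the cluster, BBS2, a subunit of the ciliary BBSome, had 60.0 ± 0.873 CPM in NC, 17.3 CPM with shRNA1, 26.6 CPM with shRNA2 and 54.3 CPM with shRNA3. It fell by 1.79 (edgeR adjusted p = 0.000428) and 1.18 (adjusted p = 0.00609) with shRNA1 and shRNA2 and differed by -0.15 with shRNA3 (adjusted p = 0.697). OGFOD1 and NUDT21, the next genes on that side, were called with no hairpin.

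On the other side, NUP93, a nuclear pore protein, had 162 ± 14.9 CPM in NC and fell to 105 ± 3.81, 118 ± 4.92 and 94.8 ± 21.3 CPM (SD, n = 3; edgeR adjusted p = 0.00459, 0.0251 and 0.00130). SLC12A3, a sodium chloride cotransporter of the kidney, had 0 counts in all NC libraries and 13 to 113 counts in every shRNA library. It passed the filter through shRNA libraries alone, so a call against NC could only be higher and adds no support. edgeR called it higher for all 3 hairpins (adjusted p = 0.00150, 0.000828 and 0.000896). It was at least 12.3-, 20.1- and 18.9-fold higher. HERPUD1, an endoplasmic reticulum stress gene, was called with no hairpin. Farther out, GNAO1, a G protein subunit, fell from 55.8 ± 5.38 CPM to 11.3 ± 3.34, 21.3 ± 1.53 and 18.7 ± 5.80 CPM. The antisense RNA AC009090.6 was called lower with all 3 (3.27 CPM in NC and 1.37, 1.02 and 0.633 CPM), but it overlaps FAM192A on the opposite strand, and without knowledge of strand in the counting the 2 cannot be told apart.

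Zinc transporters were described because metallothioneins buffer the zinc that these carry. Of the 10 exporters of the SLC30 family, 6 were tested. Of these, 2 fell and 1 rose with all 3 hairpins, beside 19.7% and 16% of all tested genes. SLC30A4, which loads zinc into vesicles, had 16.9 ± 2.24 CPM in NC and fell, hairpin by hairpin, to 4.21 ± 1.27, 3.91 ± 0.424 and 3.69 ± 1.46 CPM. SLC30A9 fell by 0.92, 0.49 and 0.78 on the log2 scale, and SLC30A5, a zinc carrier of the early secretory pathway, rose by 0.55, 0.44 and 0.48 (largest edgeR adjusted p of the 6 values 0.00948). SLC30A1, the plasma membrane exporter and a known target of MTF1, was looked at after its values were seen. It had 44.4 ± 3.53 CPM in NC and rose to 87.0 ± 9.67 with shRNA1 and 122 ± 28.2 with shRNA3 (edgeR adjusted p = 0.000532 and 3.42e-05), with 55.1 ± 1.03 CPM for shRNA2 (adjusted p = 0.143). With shRNA1 and shRNA3, SLC30A1 was thus higher and the metallothionein sum lower than in NC, while SLC30A1 had no call for shRNA2. The part of MTF1 or zinc in either was not tested.

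Of the 14 importers of the SLC39 family, 12 were tested. Of these, 2 fell and 3 rose with all 3 hairpins, beside 19.7% and 16% of all tested genes. SLC39A8, a carrier of zinc and manganese, rose from 18.3 ± 2.04 CPM to 58.5 ± 15.8, 71.0 ± 2.91 and 70.4 ± 11.3 CPM, and SLC39A6 from 47.2 ± 1.90 CPM to 121 ± 9.60, 93.0 ± 2.29 and 105 ± 1.59 CPM. SLC39A1, a plasma membrane zinc importer, rose by 0.58, 0.55 and 0.998 on the log2 scale. SLC39A2, 1 of the 2 that fell, was called lower from a level of 0.933 CPM in NC, with 0.0987, 0.134 and 0.122 CPM in the shRNA groups, near the floor. It passed the filter through its NC counts alone, so a call against NC could only be lower and adds no support. The calls of the named importers were by edgeR, with a largest adjusted p of 0.0192.

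Copper genes were split as well. All 12 on the list were tested. Of these, 4 fell and 2 rose with all 3 hairpins, beside 19.7% and 16% of all tested genes. SLC31A2, a copper transporter of internal membranes, fell from 30.1 ± 0.744 CPM to 9.12 ± 0.870, 4.62 ± 0.658 and 4.61 ± 1.63 CPM, and CCS, the copper chaperone of superoxide dismutase, with 65.9 ± 5.95 CPM in NC, fell by 1.42, 1.58 and 1.23 on the log2 scale. COX11 rose by 1.12, 0.98 and 0.77 and COX17 by 1.03, 0.75 and 1.13 on the log2 scale; both deliver copper to cytochrome c oxidase in mitochondria (largest edgeR adjusted p of the 4 genes 0.0331).

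Glucocorticoids also induce the family. Of a list of 8 genes of the glucocorticoid response, which holds the receptor gene itself beside induced genes, 7 were tested. Of these, 3 rose and none fell with all 3 hairpins, beside 16% and 19.7% of all tested genes. By hairpin, 3 rose and 1 fell with shRNA1, 4 rose and 1 fell with shRNA2, and 5 rose and none fell with shRNA3. Over all tested genes, edgeR called 57.4%, 53% and 53.9% in either direction. NR3C1, the glucocorticoid receptor, with 52.3 ± 5.80 CPM in NC, rose by 1.31, 1.28 and 0.98 on the log2 scale, and SGK1, a kinase, from 21.3 ± 1.11 CPM to 132 ± 38.1, 62.2 ± 3.08 and 78.4 ± 15.5 CPM. DUSP1, a MAP kinase phosphatase, had 13.4 ± 1.25 CPM in NC, 72.7 to 197 CPM with shRNA1 and shRNA2, 1889 and 1909 CPM in shRNA3 libraries 1 and 2 and 79.3 CPM in shRNA3 library 3 (largest edgeR adjusted p of the 3 genes 0.0194). KLF9, a transcription factor chosen after its values were seen as the 1 that fell, had 37.0 to 45.6 CPM in NC, 5.26 to 9.54 CPM with shRNA1 and 14.6 to 16.4 CPM with shRNA2 (edgeR adjusted p = 0.000328 and 0.00796). PER1, a clock gene, had 48.5 to 65.5 CPM in NC, 8.25 to 29.1 CPM with shRNA1 and 25.9 to 27.0 CPM with shRNA2, without a call (adjusted p = 0.165 and 0.341). The same 2 shRNA3 libraries had 912 and 759 CPM of TSC22D3 and 886 and 805 CPM of PER1, while shRNA3 library 3 had 15.8 and 11.4 CPM. FKBP5, another gene of the list, went the other way, with 27.1 and 26.7 CPM in shRNA3 libraries 1 and 2 and 49.1 CPM in library 3. TSC22D3, PER1 and FKBP5 were picked outside the naming rule. The shRNA3 library with the most MT1X, MT1B and MT1G had less DUSP1, TSC22D3 and PER1 and more FKBP5 than libraries 1 and 2. Whether the glucocorticoid response had a part in this was not tested. The metallothionein sum of the 3 shRNA3 libraries, 1287, 1431 and 1443 CPM after TMM scaling, did not set library 3 apart. As a share of library counts it was 0.0993%, 0.114% and 0.153%, highest in library 3. So was the sum without MT1E and MT2A, at 83.3, 111 and 343 CPM. The part of what sets these libraries apart in the MT1X value was not tested.

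The genes whose levels over the 12 libraries were most like MT1E, by Euclidean distance of centred log2(CPM + 1) among 10191 genes with a mean of at least 10 CPM, were CLDN1 (1.12), CD74 (1.44) and MAGEA4 (2.61). CLDN1, a tight junction protein, had 509 ± 11.9 CPM in NC and at most 0.0505 CPM as a group mean with shRNAs. CD74, the invariant chain of MHC class II, had 700 ± 37.0 CPM in NC and 0.547, 0.304 and 0.729 CPM, and MAGEA4, a cancer-testis antigen, had 236 ± 12.3 CPM in NC and at most 0.0666 CPM. A pattern of high levels in NC and nearly none with any hairpin was therefore not limited to MT1E. The genes most like MT2A were WIPI1 (0.908), PAPLN (0.919) and TRPT1 (0.963), with 24.9, 29.2 and 47.8 CPM in NC and 3.09 to 13.2 CPM as group means with shRNAs. All these distances share the same 12 libraries and describe shape alone.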

How the data were processed

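The authors deposited 1 table of expected counts per gene for the 12 libraries. The submitters' processing notes list HISAT2, HTSeq 0.11.2 and GRCh38, and 13.8% of the deposited values are not whole numbers. The annotation, the use of strand and the treatment of reads that fit several genes are not given in the sources used here. Counts were rounded (14 of 120 values of the members were not whole, by up to 0.32) and scaled by TMM. The filter was filterByExpr of edgeR 4.0.16 (R 4.3.3), given the 4 groups, with a count of 10 and a total of 15 as minima, and it passed 17532 genes. Tests were two-sided, robust quasi-likelihood F tests in 1 model of all 12 libraries with 8 residual degrees of freedom, checked on simulated data. No p-value was computed for the family sum or for a gene list. A fold against a group at or under 3 counts per library is a lower bound, computed against the largest such floor in that group. Positions, transcripts and coding sequences are from GENCODE release 29 (GRCh38), and promoters from RefSeq.

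All 10 members are named. Of each pathway list, the up to 4 genes called with all 3 hairpins in 1 direction and changed most by the hairpin that changed them least are named. SLC30A1, KLF9, PER1, TSC22D3 and FKBP5 are named besides, outside this rule. Of the flanking genes, the 3 nearest on each side and those called with all 3 hairpins are named. The members, lists and rules were chosen with earlier results of these data known. Alternatives were DESeq2 size factors, raw library totals, no filter, a mean of at least 50 counts, unrounded counts, DESeq2's Wald test (1.42.0), only the libraries compared, a replicate block, a log2 change of at least 1, each library left out, and shRNA3 without libraries 1 and 2. Leaving out single libraries for the sum without MT1E and MT2A and for the lower bounds was added after seeing the data.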

Additional observations from a re-analysis of the deposited data

Results flagged for a closer look

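Differences between hairpins under the same contrast to NC were called for all 4 tested members by the edgeR test of the difference itself, but most of these calls depend on the setting: of 22 alternatives, 13 lost that of MT1F between shRNA1 and shRNA2, 9 that of MT1F between shRNA2 and shRNA3, 14 and 8 those of MT1X, and 9 that of MTF1. Those of MT1F and MT2A between shRNA1 and shRNA3 were each lost in 1, with only the libraries compared. In that setting 0 genes of all tested were called between shRNA1 and shRNA3 or between shRNA2 and shRNA3. MT1F differed in 3 pairs, by -1.07 between shRNA1 and shRNA2, -2.87 between shRNA1 and shRNA3 and -1.80 between shRNA2 and shRNA3 on the log2 scale. MT1X differed by -2.53 between shRNA2 and shRNA3 and by -1.79 between shRNA1 and shRNA3, with shRNA3 library 3 above every NC library. MT2A differed by -1.13 and MTF1 by 0.67 between shRNA1 and shRNA3. MT1B, a locus of the cluster outside the list, was at 0 counts in all NC libraries and reached 14.4 CPM in shRNA3 library 3.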

How the results depend on the processing

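The family sums kept their direction in all settings, and leaving out 1 library moved the log2 difference between -3.18 and -2.78 for shRNA1, -2.80 and -2.40 for shRNA2, and -1.96 and -1.56 for shRNA3. Requiring a log2 change of 1 or more in addition left 2 members called for shRNA2 and 1 for shRNA3 against NC, 1 zinc exporter, 2 zinc importers and 2 copper genes. SLC39A2, which passed the filter through NC alone, is 1 of these 2 importers. How many of all tested genes meet this threshold was not counted. Between shRNA1 and shRNA2, edgeR called 0 members with DESeq2 size factors, raw library totals, no filter or the replicate block. In these settings 1420 to 2148 of 17532 to 33435 genes were called. It called 3 members with only the libraries compared (6252 of 15256 genes) and 0 to 3 without 1 library (559 to 7233 genes). Where no member was called, 1 to 3 were at an unadjusted p under 0.05. Between shRNA1 and shRNA3 it called 2 members with no filter (3955 of 33435 genes) and 2 to 4 without 1 library (1788 to 11573 genes). With only the libraries compared it called 0 of 15326 genes, so no member could be called there (4 at an unadjusted p under 0.05, and 4 by DESeq2's Wald test). Between shRNA2 and shRNA3 it called 1 member with raw library totals, no filter or the replicate block (378 to 911 of 17532 to 33435 genes). Without 1 library it called 0 to 3 members (0 to 10799 genes). With only the libraries compared it called 0 of 15116 genes, so again no member could be called (3 at an unadjusted p under 0.05, and 3 by DESeq2's Wald test). Without shRNA3 libraries 1 and 2, 5 glucocorticoid genes were called. MT1X with shRNA3 reversed to 0.45 there. MT1B between shRNA2 and shRNA3 reversed to 0.31 with the replicate block and to 3.53 without shRNA3 library 3, in a range of -1.80 to 3.53 when shRNA3 libraries were left out in turn. The cause of these changes was not tested. Scaling by raw totals shifted the median of all genes by -0.10, -0.18 and -0.35 for shRNA1, shRNA2 and shRNA3 against NC and by 0.21 and 0.18 for shRNA1 and shRNA2 against shRNA3. Replicate numbers are shared between groups, but the deviations of libraries with the same number correlated at -0.0107 on average (-0.0963 to 0.0968 over 18 pairs), so the numbers were not taken to pair the libraries. The depth of these libraries gives no test for MT1A, MT1G, MT1H, MT1M and MT3.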
